A study of Mus musculus with 2 samples.

Results

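The nuclear genes of respiratory complexes II to V were described in mouse liver. They were taken as all array probes whose annotated symbol names a succinate dehydrogenase subunit (Sdha to Sdhd), a gene with the prefix Uqcr or Cyc1, a cytochrome c oxidase gene with the prefix Cox4 to Cox8, or a gene with the prefix Atp5. This gave 52 probes for 49 of the 19321 named genes on the array: 4 genes of complex II, 10 of complex III, 18 of complex IV and 17 of ATP synthase (complex V). The rule used names and no measured value. Of the 49 genes, 46 were above background on both arrays.

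Complex II oxidises succinate and hands the electrons to ubiquinone, which links the tricarboxylic acid cycle to the respiratory chain. Complex III passes electrons from ubiquinol to cytochrome c, complex IV passes them on to oxygen, and ATP synthase uses the proton gradient that the chain builds to make ATP. Hepatocytes are rich in mitochondria and use this ATP for glucose, urea and lipid synthesis. All complex II subunits are nuclear genes, while complexes III to V combine nuclear subunits with some encoded in mitochondrial DNA. No gene with a mitochondrial symbol (prefix mt-) was named on the array (0 genes), so only the nuclear side is described.

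Total RNA from whole liver of 24-week-old mice was measured on 2 single-colour arrays, 1 from Twist2-Cre mice (control) and 1 from Twist2-Cre/A20fl/fl mice (here CKO). Both genotypes carry Twist2-Cre, a driver for mesenchymal lineages, whereas hepatocytes, the bulk of the tissue, are of another lineage; A20, the product of Tnfaip3, restrains NF-kB signalling. Strain and number of animals per RNA are not stated in the labels. The comparison asks how liver transcript levels differ once the floxed A20 alleles are added to the Cre driver.

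Each genotype had 1 array, so no test or p-value was possible, error across animals is unknown and precision is limited by the number of arrays. Ratios are log2 normalized intensity in CKO minus control, and the deposited intensities, a separate scale with its own scaling, are given beside them. As a guide to error between probes only, ratios of different probes of 1 gene had an SD of 0.13 (689 genes). This SD pools genes of all levels above background and was not matched to the level of the members. Blank spots averaged 67.2 (control) and 69.3 (CKO), and gene spots had medians of 81.1 and 84.0. Tnfaip3 had deposited intensities of 41 and 38 and a ratio of -0.07; the part of the transcript its probe reads was not known, so this value does not check the label. In whole tissue, fewer cells of a type and less RNA per cell cannot be told apart.

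Most genes of complexes II to V read slightly lower in the CKO liver, by amounts that were small for single genes. Of the 46 genes above background, 37 (80.4%) had a lower normalized level in CKO, beside 57.7% of all 14143 genes above background. Their median ratio was -0.11, beside -0.02 for all genes. No member differed by 2-fold (0 of 46; 0.0778% of all genes were at least 2-fold lower and 0.636% at least 2-fold higher). The ratios ran from -0.40 for Uqcrc2 to 0.25 for Cox7a2l. At least 1.2-fold lower were 3 members, Uqcrc2, Uqcrb and Cyc1, all of complex III. This was 6.52% of the members beside 4.16% of all genes, so the count is near the background. At least 1.2-fold higher were 0 members, beside 5.49% of all genes; Cox7a2l lay just inside that limit.

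**Figure D1:**
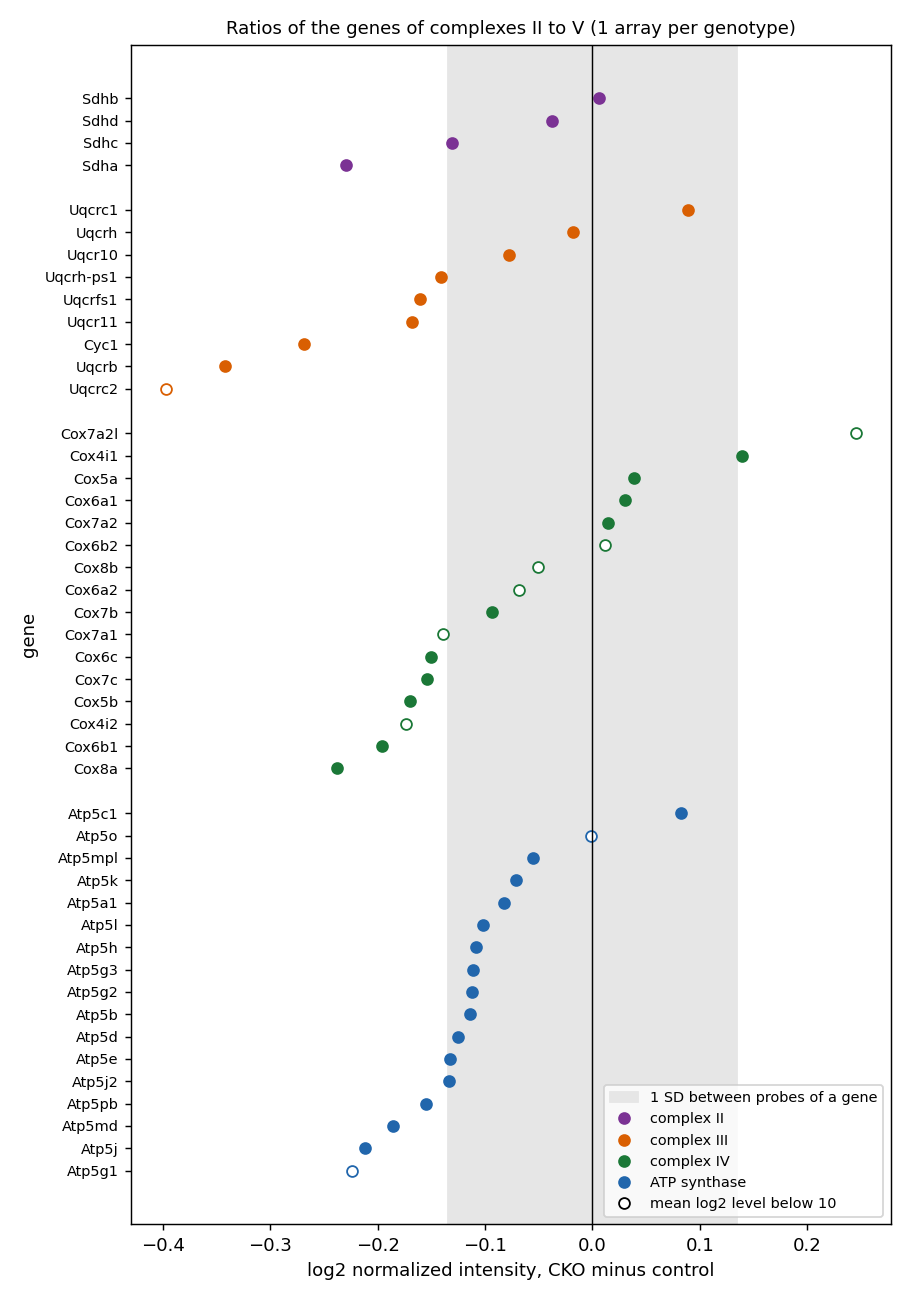
Each point is the ratio (log2 normalized intensity, CKO minus control; 1 array per genotype) of 1 of the 46 genes above background, grouped by complex; open points are genes with a mean log2 level below 10, and the grey band is 1 SD (0.13) between probes of a gene. Of the 17 ATP synthase genes, 16 lie left of 0, with Atp5o almost on it (-0.0018), while complex IV runs from -0.24 to 0.25.

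Because most members were bright, the same count was made among bright genes. At a mean log2 level of at least 10 there were 37 members and 823 genes in all. Of these members 30 (81.1%) were lower, beside 55.7% of the bright genes, with a median of -0.11 beside -0.04. At least 1.2-fold lower were 2 of them (5.41%, beside 10.4% of bright genes) and at least 1.2-fold higher were 0 (beside 10.3%). Past 2-fold were 0, beside 0.608% of bright genes lower and 1.34% higher. Uqcrc2 is not among them, since the mean of its bright and its dim probe falls below that level. The bright members thus lay in a narrow band, with quartiles of -0.16 and -0.06, where those of all bright genes were -0.15 and 0.10. Of the 37 bright members, 22 lay within 1 SD between probes of a gene.

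**Figure D2:**
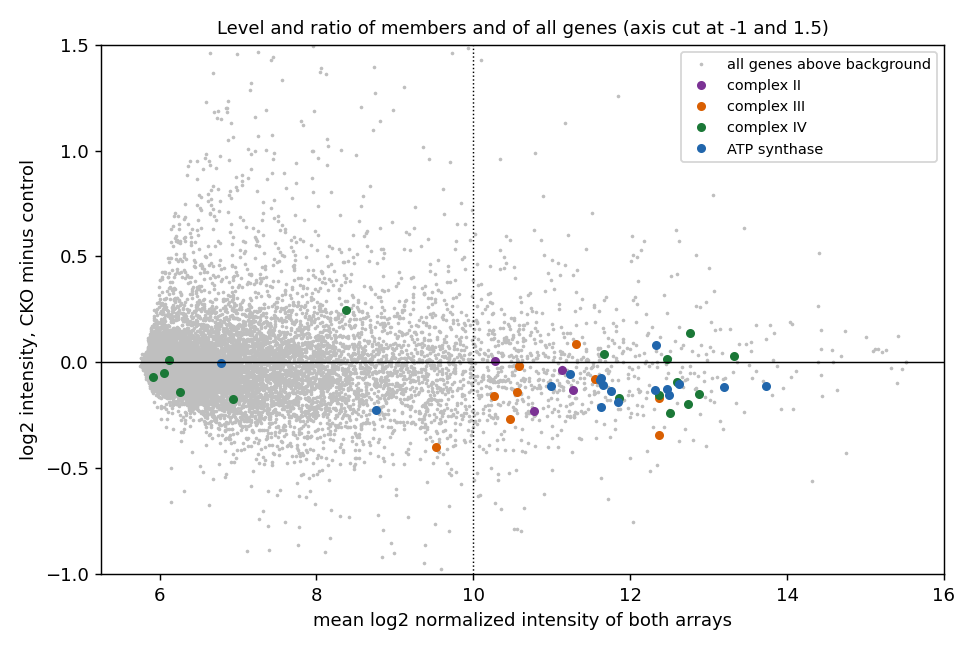
The ratio of each gene (log2 normalized intensity, CKO minus control) is plotted against its mean log2 level over both arrays, with all 14143 genes above background in grey and members coloured by complex; the dotted line marks level 10, and genes beyond the vertical limits of -1 and 1.5 are not drawn. The members right of that line form a narrow cloud centred at -0.11.

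The deposited intensities gave the same side for most members and larger differences. Of the 46 members 41 were lower in CKO, 4 were higher and 1 was equal (Atp5o), while 53.6% of all genes were lower on that scale. Cox4i1, Uqcrc1 and Cox7a2l were higher on their single probes. Cox6b2 counts as higher only through the mean log ratio of its 3 dim probes, since 1 probe near the floor read 3 and 7 while the others read 38 and 34, and 4 and 4. The deposited scale puts bright genes lower in CKO altogether: the median over the 823 bright genes was -0.12 there, and that of the bright members -0.22. Set against bright genes, the members' median was 0.08 lower on the normalized scale and 0.10 lower in the deposited values. The count at least 1.2-fold lower depended on this scale, with 21 members (45.7%) in the deposited values and 3 after quantile normalization. In the deposited values 24.3% of all genes were at least 1.2-fold lower, and 15 of the 37 bright members were, beside 23.2% of bright genes.

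**Figure D3:**
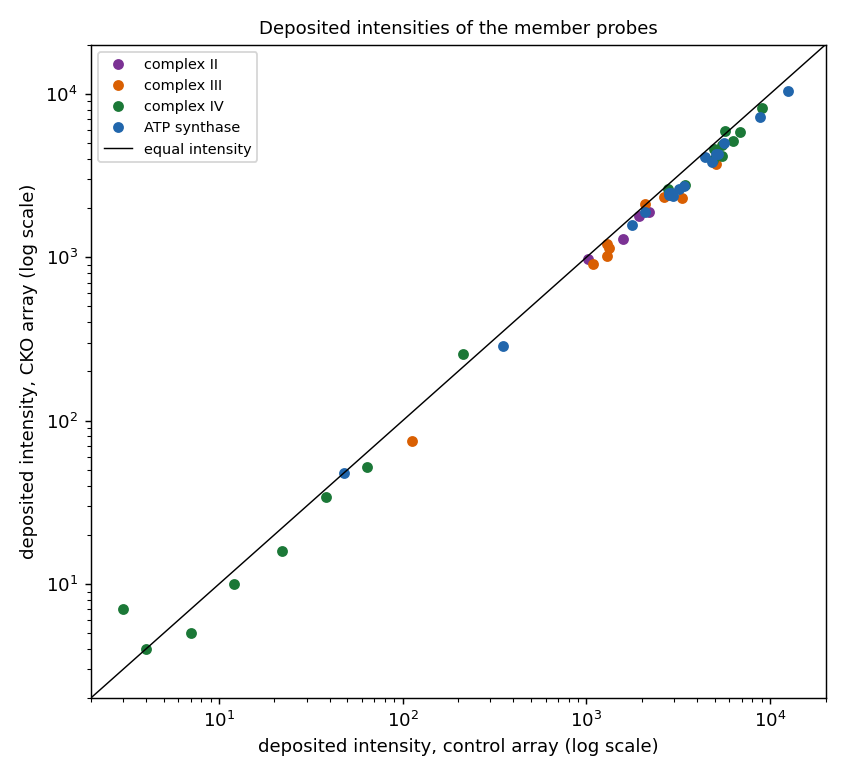
Deposited intensity of each member probe on the CKO array against the control array, both axes logarithmic, coloured by complex; the line marks equal intensity. Most points of the bright probes lie just under the line, with Cox4i1 (5675 and 5916) and Uqcrc1 (2094 and 2119) above it.

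In complex II, the flavoprotein differed most. Sdha, the subunit that carries FAD and oxidises succinate, had a deposited intensity of 1584 for control and 1287 for CKO, and a ratio of -0.23. The membrane anchor Sdhc had 2184 and 1899 (ratio -0.13), and the other anchor, Sdhd, had 1934 and 1785 (-0.04). The iron-sulphur subunit Sdhb had 1026 and 979 with a ratio of 0.01, so its side differs between the scales. The CKO array was thus lower for 3 of the 4 genes after normalization and for every one of them in the deposited values, with a median ratio of -0.08 and only Sdha beyond the SD between probes.

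In complex III 8 of 9 genes above background were lower in CKO, with a median of -0.16. The order of the complexes by median depends on the scaling: complex III and ATP synthase had medians of -0.16 and -0.11 here, -0.18 and -0.19 with median scaling, and -0.24 and -0.25 in the deposited values. The largest difference was that of Uqcrc2, a core protein of the matrix side, and it is the single member of complex III read by more than 1 probe. Its brighter probe had deposited intensities of 3323 for control and 2303 for CKO (ratio -0.41), and its dimmer probe had 113 and 75 (-0.39). The probes therefore agree to within the SD between probes of a gene. Both lie in the same array block, so they share any effect of position. With each block centred on its median, the ratio of Uqcrc2 was -0.35. The partner core protein Uqcrc1 had deposited intensities of 2094 and 2119 and a ratio of 0.09. These ratios of the core proteins lay 0.49 apart. That SD is for the ratio of a single probe and understates the spread of a difference between genes.

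The subunits of complex III that carry electrons read lower. Cyc1, cytochrome c1, had deposited intensities of 1300 and 1015 and a ratio of -0.27. Uqcrfs1, the Rieske iron-sulphur protein, had 1079 and 912 (ratio -0.16). Among the small subunits, Uqcrb had 5085 and 3708, a ratio of -0.34 and the second largest difference of all members. Uqcr11 had 4902 and 3928 (-0.17), and Uqcr10 had 2634 and 2349 (-0.08). All of these were lower in CKO on both scales, and Uqcr10 was within the SD between probes.

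The hinge protein gene Uqcrh was near equal, with deposited intensities of 1291 and 1213 and a ratio of -0.02. Its annotated pseudogene Uqcrh-ps1, which the name rule also takes in, had 1321 and 1142 and a ratio of -0.14. A near copy may share its signal with the parent gene, so the split between these probes is uncertain; without the pseudogene the median of all members was -0.11 as before. Uqcrq, another small subunit of the complex, was not well above background on either array, with spot intensities of 65.6 and 68.2 at the level of the blank spots. No ratio is read from it.

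Complex IV was mixed, with 10 of 16 genes above background lower and a median of -0.08. That median includes dim isoforms whose ratios the offset shrinks; it was -0.12 over the 10 bright genes, -0.13 with an offset of 16, -0.15 with plain subtraction and -0.25 in the deposited values. Lower in CKO were Cox8a (deposited intensity 5452 for control and 4163 for CKO, ratio -0.24), Cox6b1 (6271 and 5176, -0.20), Cox5b (3433 and 2778, -0.17), Cox7c (4893 and 3942, -0.15), Cox6c (6844 and 5835, -0.15) and Cox7b (5466 and 4849, -0.09). All 6 are small nuclear subunits that surround the mitochondrially encoded core, and Cox7b lies within the SD between probes. Cox4i1, the general isoform of subunit IV, had deposited intensities of 5675 and 5916 and a ratio of 0.14. It was higher on both scales and lay 0.38 above Cox8a. Cox5a (2789 and 2609, ratio 0.04), Cox6a1 (9068 and 8152, 0.03) and Cox7a2 (4920 and 4605, 0.01) were higher after normalization and lower in the deposited values, with no settled side.

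Cox7a2l had the highest ratio of all members. It encodes a relative of the Cox7a subunits that joins complexes III and IV into supercomplexes, and it had deposited intensities of 212 and 257 and a ratio of 0.25. The ratio of its relative Cox7a2 minus that of Cox7a2l was -0.23. To show the upstream sequence at both ends of the complex IV range, the 120 bases before the annotated start of Cox8a and Cox7a2l are given from RefSeq (GRCm38.p6, minus strand, 5′ to 3′ on the gene's strand). Cox8a lies at chr19:7217617-7217736 and Cox7a2l at chr17:83514334-83514453; none of the motifs searched was found in these 120 bases, so no letters are in capitals.
Cox8a: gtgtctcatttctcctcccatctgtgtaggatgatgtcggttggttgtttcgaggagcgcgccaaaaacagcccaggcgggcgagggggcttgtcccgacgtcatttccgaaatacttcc
Cox7a2l: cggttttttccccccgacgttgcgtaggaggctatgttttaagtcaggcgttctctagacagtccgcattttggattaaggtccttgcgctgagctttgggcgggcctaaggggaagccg

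The tissue-specific isoforms of complex IV were dim or not measured in this liver. The lung isoform Cox4i2 had deposited intensities of 64 and 52 (ratio -0.17). Of the heart and muscle isoforms, Cox7a1 had 22 and 16 (-0.14), Cox8b had 12 and 10 (-0.05) and Cox6a2 had 7 and 5 (-0.07). The testis isoform Cox6b2 was read by 3 probes whose deposited intensities were 38 and 34, 4 and 4, and 3 and 7; its mean ratio was 0.01, and its probes did not share a side. Cox7b2 was above background on the control array alone, with a normalized level at least 1.05-fold higher there, and Cox8c was not well above background on either array. Near background the offset used here shrinks ratios: with plain subtraction of the blank mean the ratios were -0.31 for Cox4i2, -0.47 for Cox7a1, -0.27 for Cox8b, -0.61 for Cox6a2 and 0.28 for Cox6b2.

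Markers of tissues that use the muscle isoforms were also near background. Of 12 skeletal and cardiac muscle markers, 8 were not well above background on either array, among them Acta1, Myh7 and Actn3, and the list's deposited intensities summed to 44 (control) and 65 (CKO). The myosin Myh6 (11 and 35), the troponin Tnni2 (8 and 11) and myoglobin Mb (19 and 14) were among those above background. Of 5 brown fat markers Dio2 was not well above background, and the list's deposited intensities summed to 82 and 108. The uncoupling protein Ucp1 had deposited intensities of 6 and 3 (ratio -0.07), the elongase Elovl3 had 22 and 39 (0.32), and Ppargc1a had 24 and 30.5 (0.12).

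Nearly all ATP synthase genes read lower. Of the 17 genes, all above background, 16 were lower in CKO, beside 57.7% of all genes. The median ratio was -0.11, with quartiles of -0.13 and -0.08. The count of lower genes includes the dim Atp5o, with a ratio of only -0.0018 and equal deposited intensities. Only Atp5g1, Atp5j, Atp5md and Atp5pb lay beyond the SD between probes. In the catalytic F1 head, the beta subunit Atp5b had deposited intensities of 8761 for control and 7169 for CKO (ratio -0.11), and the alpha subunit Atp5a1 had 2800 and 2419 (-0.08). The delta subunit Atp5d had 5094 and 4284 (-0.13) and the epsilon subunit Atp5e had 4794 and 3845 (-0.13). The gamma subunit Atp5c1, the rotating shaft inside the head, had 4403 and 4116 with a ratio of 0.08; it was the only ATP synthase gene higher after normalization and was lower in the deposited values.

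The peripheral stalk, which keeps the head from turning, had a median of -0.13 over 4 genes. Atp5j (coupling factor 6) had deposited intensities of 2955 and 2370 (ratio -0.21), Atp5pb (subunit b) had 5198 and 4308 (-0.15) and Atp5h (subunit d) had 2891 and 2476 (-0.11). Atp5o, the oligomycin sensitivity protein, had 48 and 48 and a ratio of 0.00. The 5 small membrane subunits were all lower: Atp5md (3393 and 2730, -0.19), Atp5j2 (3188 and 2609, -0.13), Atp5l (5629 and 4984, -0.10), Atp5k (2806 and 2464, -0.07) and Atp5mpl (2080 and 1890, -0.06). Apart from Atp5md, each of these 5 was within the SD between probes.

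The c ring, which rotates as protons pass, is encoded by 3 genes, Atp5g1, Atp5g2 and Atp5g3, whose products give the same mature protein. Atp5g1 had deposited intensities of 353 and 288 and a ratio of -0.22. Atp5g2 had 1768 and 1576, and Atp5g3 had 12529 and 10440, each with a ratio of -0.11. All 3 were lower in CKO on both scales. Since genes for 1 mature protein stand under different promoters, the 120 bases before each annotated start are shown from RefSeq (GRCm38.p6, minus strand, 5′ to 3′ on the gene's strand), at chr11:96075632-96075751 for Atp5g1, chr15:102671048-102671167 for Atp5g2 and chr2:73911327-73911446 for Atp5g3. Capitals mark letters that match a searched motif.
Atp5g1: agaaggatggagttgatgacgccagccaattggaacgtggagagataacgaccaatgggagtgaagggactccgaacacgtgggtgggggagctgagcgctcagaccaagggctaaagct
Atp5g2: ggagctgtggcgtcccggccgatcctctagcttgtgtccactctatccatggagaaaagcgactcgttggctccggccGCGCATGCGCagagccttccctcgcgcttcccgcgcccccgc
Atp5g3: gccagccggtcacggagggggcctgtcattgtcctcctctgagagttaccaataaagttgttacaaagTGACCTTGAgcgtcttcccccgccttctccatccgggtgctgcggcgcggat

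The 3 upstream stretches differ in these motifs, while all 3 genes read lower. Letters of the nuclear respiratory factor NRF-1 motif lay in that of Atp5g2, 42 bases before the start on the plus strand of the gene and 41 on the minus strand, which overlap. Letters of the ESRRA motif lay in that of Atp5g3, 52 bases before the start on the minus strand. None of the motifs was found upstream of Atp5g1.

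Over the 250 bases before the start, upstream sequence was held for 35 of the 46 members above background. GCGCATGCG (NRF-1, either strand) was found in 4 of the 35 (11.4%: Atp5g2, Atp5k, Atp5l and Cox6a1), beside 2.77% of 11135 genes above background on the arrays and 1.64% of all 27025 genes with a sequence. CCGGAAG (the ETS family, which includes GABP) was found in 9 (25.7%), beside 12.9% and 7.83%. These were Sdhd, Uqcrh, Uqcr11, Cox6a1, Cox6b1, Atp5e, Atp5h, Atp5j and Atp5l. TCAAGGTCA (ESRRA) was found in 1 of the 35, Atp5g3, beside 0.278% and 0.422%. The median GC content of the windows was 54.4% for members and 58.4% for the genes above background. A match is a description of letters and not of binding, and sequences of Uqcrc2, Uqcrb and Cyc1 were not analysed here.

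Other genes of the pathway were also followed, with no test of a difference between lists. Of 37 genes named as complex I subunits (prefixes Ndufa, Ndufb, Ndufc, Ndufs and Ndufv), 31 (83.8%) were lower, beside 57.7% of all genes. Their median was -0.09. At least 1.2-fold lower were 5, beside 4.16% of all genes, and at least 1.2-fold higher were 0, beside 5.49%. Ndufs7, which carries an iron-sulphur cluster close to the quinone site, had deposited intensities of 734 and 515 (ratio -0.43), and Ndufa6 had 2423 and 1708 (-0.42). Ndufa4, named like a complex I gene but now counted as a complex IV subunit, had 2832 and 2485 (-0.07); it was picked out after its value was seen. Without it and its relative Ndufa4l2, 29 of 35 were lower and the median was again -0.09. Among bright genes alone, 20 of 23 complex I genes were lower with a median of -0.14, beside 55.7% of all bright genes. At least 1.2-fold lower were 3 of the 23, beside 10.4% of bright genes.

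Of 35 genes for assembly factors and electron carriers on the array, 20 (57.1%) were lower and 15 higher, with a median of -0.02. Of all genes, 57.7% were lower. At least 1.2-fold higher were 0 of the 35, beside 5.49% of all genes. At least 1.2-fold lower were 3 of the 35, beside 4.16% of all genes. These were Coa3 (deposited intensity 800 and 571, ratio -0.39), Cox20 (569 and 443, -0.28) and Cox10 (186 and 143, -0.28), all needed to build complex IV. Of 12 genes of the tricarboxylic acid cycle 8 were lower, with a median of -0.07; citrate synthase Cs had 496 and 408 (-0.21), Sucla2 had 183 and 149 (-0.21), and the dehydrogenase subunit Dld had 394 and 446 (0.21). Genes for uncoupling and other electron entry had a median of -0.09 with 5 of 8 lower, from the electron transfer flavoprotein Etfa (3145 and 2369, -0.29) to its oxidoreductase Etfdh (604 and 666, 0.20). Adenine nucleotide and phosphate carriers and porins had a median of -0.03 with 4 of 6 lower. The largest difference was that of the dim Slc25a4, which was higher (56 and 69, 0.18). Vdac3 (1573 and 1388, -0.12) and Slc25a5 (3552 and 3120, -0.07) were lower.

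Regulators of mitochondrial biogenesis had a median of -0.02, the same as all genes, with 8 of 14 lower. The orphan receptor Esrra, which activates respiratory genes, had deposited intensities of 141 and 102 and a ratio of -0.34. It was the only 1 of the 14 at least 1.2-fold lower, beside 4.16% of all genes. The coactivator relative Pprc1 had 68 and 51 (-0.24), and Nrf1 had 43 and 57 (0.21). Ppargc1a, a coactivator and also in the brown fat list, had the ratio of 0.12 given above. These regulators stood on both sides of 0. All of them had a mean log2 level below 10, and the offset shrinks ratios of dim genes.

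**Figure D4:**
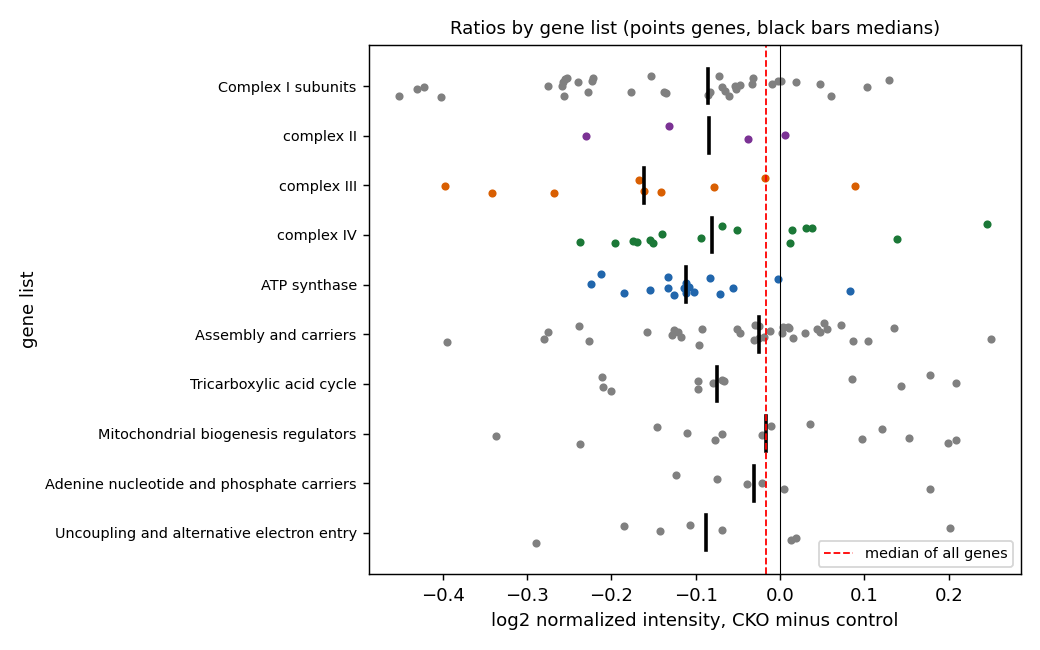
Ratios (log2 normalized intensity, CKO minus control) of genes above background, by gene list; points are genes with random vertical offsets, black bars are list medians and the dashed line is the median of all genes (-0.02). The medians of complexes I to V lie between -0.16 and -0.08, and those of assembly factors and biogenesis regulators are both -0.02. Nearly all genes of these last lists have a mean log2 level below 10, and the offset shrinks ratios of dim genes. In the deposited values, summed CKO over control was 0.89 for assembly factors and 0.97 for regulators. Over complexes I to V it ran from 0.81 for complex III to 0.88 for complex II, so assembly factors lay next to complex II on that scale. Over all probes listed on both arrays it was 0.94. The lists are not matched for level.

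Markers of several liver cell types differed between the arrays, while those of hepatocytes and of stellate cells stood on both sides of 0. Of all genes above background, 57.7% were lower. Hepatocyte markers were balanced, with 5 of 10 lower and a median of -0.01. Their deposited intensities summed to 170331 in the control and 155239 in CKO, a summed CKO over control of 0.91. Over all probes with a deposited value on both arrays, summed CKO over control was 0.94. Tat (-0.42) and Arg1 (-0.39) were lower and Hnf4a (0.33) higher. All 11 Kupffer cell and macrophage markers above background on both arrays were higher, with a median of 1.30 and a summed deposited intensity of 2735 in the control and 9139 in CKO, led by Marco (ratio 3.91), Lyz2 (1.84) and C1qa (1.60). Lymphocyte markers above background were higher in 4 of 4 genes (Cd8a 0.49, Cd3d 0.38, Cd79b 0.20), with sums of 75 and 154. Of 7 endothelial markers 5 were lower, and the list summed to 1468 and 996 (Oit3 -0.64, Clec4g -0.48, Kdr -0.43), and cholangiocyte markers in 4 of 4, with sums of 118 and 79 (Krt19 -0.33, Krt7 -0.20, Epcam -0.18). Stellate cell and fibroblast markers were lower in 3 of 8 genes and higher in 5, with a median of 0.04 (Dcn -0.52, Ecm1 -0.29, Col3a1 0.57). Their sums of 2473 and 2062 came mostly from Dcn (1387 and 918) and Ecm1 (825 and 633), and several others lay near background. Not well above background on either array were Cdh5 of the endothelial and Cd3e of the lymphocyte list. The part of cell makeup in the ratios of the respiratory genes was not tested.

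Position on the array and scaling were also followed. The 52 member probes lay in 22 of 24 blocks, whose median ratios over all genes ran from -0.05 to 0.01; with each block centred on its own median, 36 members were lower and their median was -0.11. Against the local background column of the scanner files, in contrast, 23 of 46 members (50%) were lower, beside 59.2% of all genes. The median was -0.02 for members and -0.02 for all genes, and complex III had a median of 0.46. With that column 19 of the 37 bright members were lower, beside 51.8% of bright genes. Around bright member spots that column held 77.2% of the spot's own signal (control) and 54.5% (CKO), as medians of 38 probes.

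**Figure D5:**
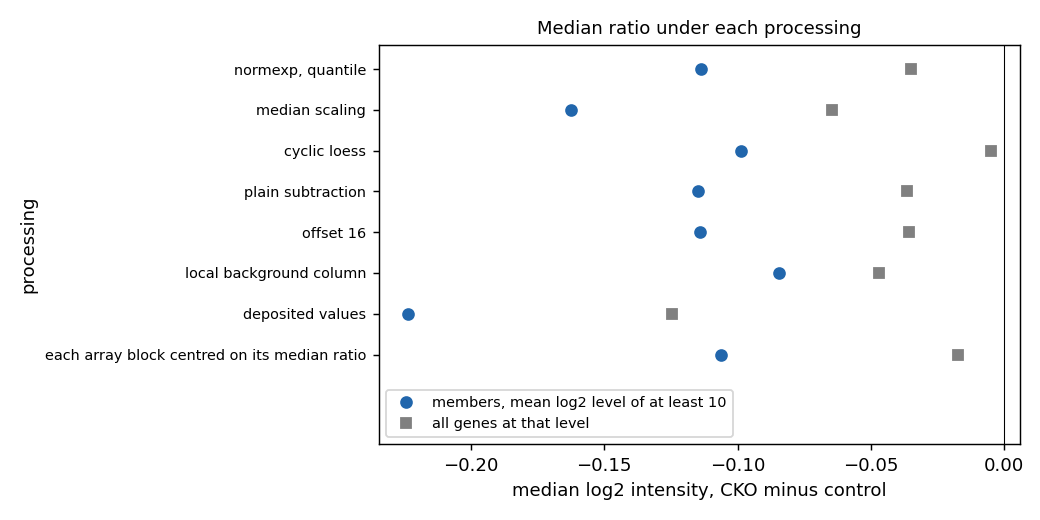
Median ratio (log2 intensity, CKO minus control) of the 37 bright members (circles) and of all 823 bright genes (squares) under each processing. The members' median lies left of that of bright genes under every processing drawn, by 0.04 with the local background column and by 0.08 to 0.10 with the others.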

How the data were processed

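Liver RNA was amplified with an amino allyl kit and coupled to Cy5, per the labels' protocols. Per the file headers, scanner files give a spot's median intensity and that of its surroundings, combined over 3 gains; the scanner software is not named. The authors' deposited value table holds intensity that, tested on the values, is linear in the spot intensity above the blank spots (slopes 0.859 control, 0.825 CKO; median 25 on both arrays); how it was made is not stated.

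Spot intensities minus the blank mean were corrected with normexp (offset 50, limma 3.58.1, R 4.3.3), quantile-normalized and log2-transformed; the 4 spots with a failed quality mark were left out. The offset shrinks ratios of dim genes. A probe was above background when it exceeded the blank mean by 2 SD, and a gene needed 1 such probe; a gene's value was the mean of its probes. Of 23473 gene probes 20690 had 1 symbol, and 49 of 49 members matched RefSeq by Entrez ID, with 0 symbols changed. Groups followed the labels. With 1 array each, genes were counted by side and past 1.2-fold and 2-fold, beside all genes. The steps were tested on 1 simulated array, made from the control array with planted 1.2-fold and 2-fold changes. Smaller changes, such as the members' median, were not planted.

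Members and lists were chosen with earlier results of these data known. Every member could be named, with up to 3 genes per other list by largest absolute ratio above background, and Tnfaip3; Ppargc1a was named as part of the brown fat list, and Ndufa4 falls outside the rule. Protein sequences were not used here, so isoforms are compared by their values only. Twist2, also in the rule, had a ratio of -0.37.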

Additional observations from a re-analysis of the deposited data

How the results depend on the processing

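With 1 array per genotype no sample could be left out, and no paired analysis was possible because each group has 1 sample. The median of the members stayed below 0 under all 12 alternatives, from -0.24 in the deposited values to -0.02 with the local background column. The median of all genes was -0.05 in the deposited values. With the local background column it was -0.02, and there the members were not lower than all genes. The alternatives were median scaling, cyclic loess, plain subtraction, an offset of 16, the local background column, the deposited values, the brightest probe and 2 other filters on dim genes. A level of at least 10, block centring and leaving out Uqcrh-ps1 were chosen after seeing the data. The filters on dim genes, the level of at least 10, the brightest probe and leaving out Uqcrh-ps1 reuse the main normalized values. Their medians are therefore no separate support. At least 1.2-fold higher were 0 members, but 1 with median scaling, cyclic loess, an offset of 16 or block centring, and 2 with plain subtraction or in the deposited values. At least 1.2-fold lower were 3 members (6.52%, beside 4.16% of all genes), but 7 with plain subtraction (15.2%, beside 23.1%) and 21 in the deposited values (45.7%, beside 24.3%). In the deposited values the medians were -0.16 for complex II, -0.24 for complex III, -0.25 for complex IV and -0.25 for ATP synthase. With the local background column 23 members were lower, 17 (37.0%) were at least 1.2-fold lower beside 12.8% of all genes, 16 at least 1.2-fold higher beside 10.8%, and 16 past 2-fold beside 4.31%; the medians were -0.78 for complex II and 0.46 for complex III, and 21 of the 46 members, from each of the 4 complexes, took the opposite sign. Among them were all 3 that had been at least 1.2-fold lower, Cyc1 (3.17), Uqcrb (0.46) and Uqcrc2 (0.018), and also Cox7b (5.67), Atp5md (1.78), Uqcr11 (1.75), Atp5g1 (0.75), Cox8a (0.64) and Cox7a2l (-0.45). Around bright member spots that column ran from 37.8% to 114.2% of the spot's own signal (control) and from 13.9% to 105.9% (CKO). The cause was not tested. Dim isoforms lie too close to the blank spots for a reliable ratio.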
